A study of Rattus norvegicus with 5 samples.

Results

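Clones 5-3.19 and 5-3.14 are engineered derivatives of INS-1, an insulin-secreting line grown from a rat beta cell tumour, and they are compared here with each other, with 1 array each, out of 5 arrays in all. They were chosen by their names: both belong to set 5-3, and nothing in the labels tells whether they descend from a common cell, so "sister" refers to the shared first part of the name. Both carry an FRT site, at which Flp recombinase can insert a chosen gene, and the tetracycline repressor, which keeps such a gene silent until tetracycline is added. No inserted gene and no tetracycline treatment is mentioned for either clone. The other 3 arrays are background: parental INS-1 without the engineered elements, and clones 1-1.2 and 1-1.16, which carry the same elements. Each array holds total RNA of 1 line or clone, so there is no replicate, no p-value, and no way to separate a lasting difference between clones from the spread between cultures or arrays. The values describe these arrays, and where a pair is given, the first is 5-3.14 and the second 5-3.19.

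Pancreatic beta cells sense glucose through its uptake and oxidation. The resulting ATP closes potassium channels, calcium enters, and granules filled with insulin are released. Insulinoma lines such as INS-1 keep most of this machinery while dividing in culture, and clones picked from single cells can settle at different levels of individual genes. A clone used to host an inserted gene is therefore also a background against which that gene is read.

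Signals are linear intensities in arbitrary units, and their trimmed mean was nearly the same on all 5 arrays. Of 15866 probe sets that are not controls, 9520 were bright enough over the 5 arrays to be compared, and they covered 6944 genes through the brightest probe set of each. Differences are on the scale log2(signal + 21.8), 5-3.19 minus 5-3.14, and folds come from that scale, so they understate the difference of dim genes. The median signal was 342.4 in 5-3.14 and 356.6 in 5-3.19. The 3′ to 5′ signal ratio, which is higher in degraded RNA, was 1.62 and 1.61 for beta-actin and 1.02 and 1.04 for GAPDH. Spiked controls were dimmer on the 5-3.19 array: 27 of 27 poly(A) control probe sets, with a median ratio of 0.822, and 18 of 18 hybridisation controls, with a median of 0.864. The part of these control differences in the gene results was not tested.

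Both clones carried the signals of beta cells. Ins1, an insulin gene, read 37973 in 5-3.14 and 37189.5 in 5-3.19, and 7 of 7 beta cell markers on the array were bright enough to compare. The second insulin gene, Ins2, read 3953 and 4303, against 28816 in the parental line. Markers of leukocytes (6 on the array), endothelial cells (3) and exocrine acinar cells (5) had no member bright enough, with highest single signals in these clones of 146.4, 63.6 and 114.2. Of 7 fibroblast markers, Thy1 was bright enough, at 2053 in 5-3.14 and 1108 in 5-3.19. The collagen genes Col1a1, Col1a2 and Col3a1 read 182.9, 76.7 and 174.5 in 5-3.14 and 117.5, 105.9 and 134.1 in 5-3.19. Of the ductal markers, Krt7 read 808.1 and 1218, and Krt19 read 95.6 and 110.4. Of 4 other islet hormones on the array, 1 was bright enough: glucagon (Gcg), at 20549.5 in 5-3.14 and 24434 in 5-3.19.

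The difference between the sister clones was one-sided: 458 probe sets (4.81% of 9520) were at least 2-fold higher in 5-3.19 and 169 (1.78%) at least 2-fold lower, so 73% of the 627 were higher. Counted by gene, 321 (4.62%) were higher and 124 (1.79%) lower. Most of the profile was shared, with 79% of probe sets within 1.5-fold and a median absolute difference of 0.292 on the log2 scale. The larger the difference, the more often it pointed to 5-3.19: 49 probe sets were past 4-fold higher against 13 lower, and 15 were past 8-fold higher against 1 lower. Set beside the other 9 pairs of arrays, the number of probe sets past 2-fold lay within a range from 254 for clones 1-1.2 and 1-1.16 to 1003 for 5-3.14 and 1-1.16. With the signals as deposited, the share pointing one way was the most uneven of the 10 pairs, the next being 31.7% higher in clone 1-1.2 than in parental INS-1. These pairs share arrays and are given side by side only.

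**Figure D1:**
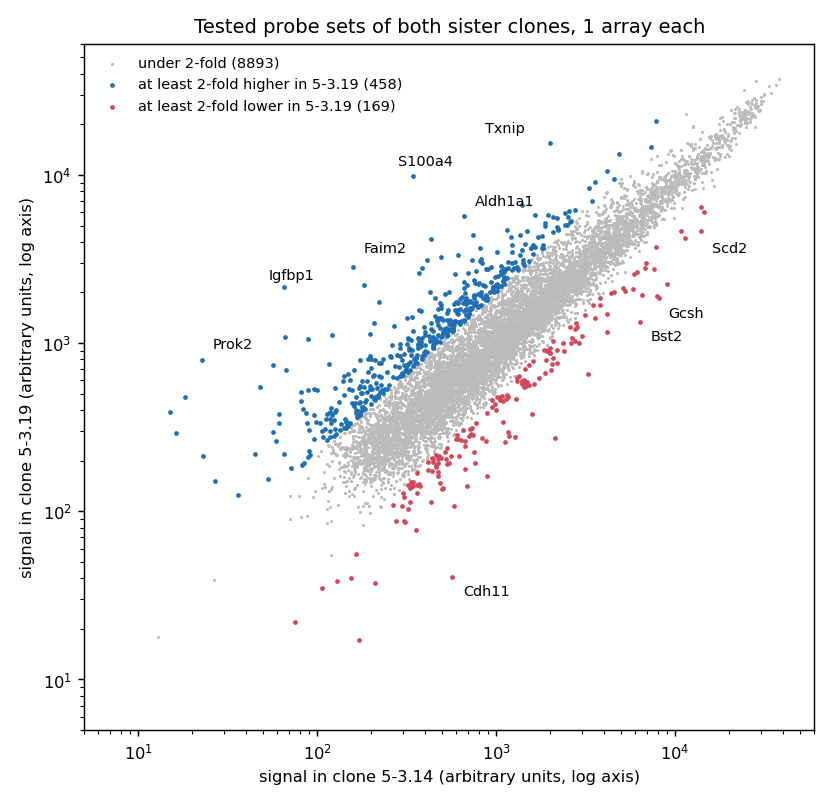
Signal of each of the 9520 compared probe sets in clone 5-3.14 (horizontal) and clone 5-3.19 (vertical), both in arbitrary units on log axes, 1 array each. Blue points are the 458 probe sets at least 2-fold higher in 5-3.19 and red points the 169 at least 2-fold lower, and the labelled genes are the named examples with large differences.

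The other 3 arrays show on which side of each pair the remaining lines lay. Of the 458 higher probe sets, the parental array was nearer to 5-3.19 in 346 (75.5%), clone 1-1.16 in 287 (62.7%) and clone 1-1.2 in 249 (54.4%). All 3 were nearer to 5-3.19 in 194 (42.4%) and all 3 nearer to 5-3.14 in 58 (12.7%). Clone 5-3.14 was itself at least 2-fold below all 4 other arrays in 106 of the 458, while 5-3.19 was at least 2-fold above all 4 others in 28. The 169 lower probe sets were more evenly placed: all 3 others were nearer to 5-3.14 in 43 and nearer to 5-3.19 in 45. Among them 5-3.14 stood at least 2-fold above all others in 24 and 5-3.19 at least 2-fold below in 30.

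A second probe set of a gene reads the same RNA again, and it mostly pointed the same way. Of 980 genes with at least 2 compared probe sets, 66 had a probe set past 2-fold higher in 5-3.19. In 27 of these every probe set was past 2-fold, and in 64 every probe set was on the higher side. Of 26 genes with a probe set past 2-fold lower, 8 had every probe set past 2-fold and 23 had every probe set on the lower side. A single gene had probe sets past 2-fold in both directions.

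Promoters are shown for the 2 genes with the largest higher values, Igfbp1 and S100a4, and for 2 of the 15 with the largest lower values, Bst2 and Gcsh, to give the sequence in front of these genes. Sequences are the 250 bases before the RefSeq start of the gene (rat build GRCr8), printed 5′ to 3′ on the gene's strand. Capitals mark a match, on either strand, to 1 of 6 short motifs: the E-box CACGTG, the cyclic AMP element TGACGTCA, the TATA box TATAAA, the GC box GGGCGG, the forkhead motif TGTTTAC and the core of the insulin response element, CAAAACA. Igfbp1 (chr14:86261027-86261276, plus strand) holds CAAAACA, which 5.46% of 27457 promoters of this length hold. S100a4 (chr2:178388279-178388528, plus strand) holds a TATA box, present in 13.1%. Bst2 (chr16:18254968-18255217, minus strand) and Gcsh (chr19:61955608-61955857, minus strand), which were lower in 5-3.19, hold GC boxes, present in 32.4%; in Gcsh they read CCGCCC on the printed strand.
Igfbp1: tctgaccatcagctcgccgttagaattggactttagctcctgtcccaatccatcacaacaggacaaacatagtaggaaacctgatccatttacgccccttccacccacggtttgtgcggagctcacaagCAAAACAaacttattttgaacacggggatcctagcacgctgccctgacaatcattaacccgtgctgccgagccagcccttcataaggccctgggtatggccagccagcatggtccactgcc
S100a4: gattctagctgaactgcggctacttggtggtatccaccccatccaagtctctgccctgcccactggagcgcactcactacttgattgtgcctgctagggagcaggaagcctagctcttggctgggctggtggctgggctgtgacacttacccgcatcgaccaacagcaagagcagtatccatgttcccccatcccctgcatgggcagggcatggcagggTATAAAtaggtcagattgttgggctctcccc
Bst2: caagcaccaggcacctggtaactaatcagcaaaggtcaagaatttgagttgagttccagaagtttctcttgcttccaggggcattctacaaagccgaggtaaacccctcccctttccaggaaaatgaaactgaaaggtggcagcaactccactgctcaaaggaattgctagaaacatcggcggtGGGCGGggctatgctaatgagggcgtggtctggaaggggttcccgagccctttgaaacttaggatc
Gcsh: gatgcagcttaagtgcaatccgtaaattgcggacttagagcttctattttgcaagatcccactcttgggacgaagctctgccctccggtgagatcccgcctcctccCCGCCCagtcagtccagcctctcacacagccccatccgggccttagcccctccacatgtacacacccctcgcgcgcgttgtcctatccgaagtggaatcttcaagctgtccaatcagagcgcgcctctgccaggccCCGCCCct
Promoters were listed for 11 of the 15 genes with the largest higher values and 12 of the 15 with the largest lower values, and a GC box was found in 4 and 8 of them. The promoters of Aldh1a1 and Scd2, also looked at, held none of the 6 motifs and are not printed. A match describes these letters and says nothing of the factor.

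S100a4 and Igfbp1 had the largest higher values in 5-3.19. S100a4, a small calcium-binding protein linked to cell motility, read 342.7 in 5-3.14 and 9792 in 5-3.19 (26.9-fold), with 15210.2 in parental INS-1, 2012 in clone 1-1.2 and 1866 in clone 1-1.16. Clone 5-3.14 was thus the lowest of the 5, and 5-3.19 lay near the parental line. Igfbp1, a secreted protein that binds insulin-like growth factors and whose gene is known to be repressed by insulin, read 64.9 and 2161 (25.2-fold), with 940, 174.4 and 217.7 in the parental line, 1-1.2 and 1-1.16. Here the sister clones were the lowest and the highest of the 5 arrays. Igfbp2, another binding protein of these growth factors, read 489.6 and 3262 (6.42-fold), with 2921, 520.5 and 2300.5 in the same 3. Prok2, the secreted peptide prokineticin 2, read 22.6 in 5-3.14, a signal near the offset, and 798.2 in 5-3.19 (18.5-fold), against 1359, 280.7 and 775.3 elsewhere. For genes this dim in 1 clone the size depends on the offset: the log2 difference of Prok2 was 4.21, but 3.01 when the offset was raised 4 times and 4.84 when it was lowered as much. The raised offset gave 3.89 in place of 4.65 for Igfbp1, and it also moved Gpr6, Tesc, Olfm1, Nell2, Adcyap1r1, Ptgs1, Sytl4, Crabp1, Sting1 and Cdh11 by more than 0.42, without a change of direction.

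Other genes with large higher values have varied roles. Gpr6, an orphan G protein-coupled receptor, read 66.4 and 1079.5, and Adcyap1r1, the receptor for the peptide PACAP, read 67.1 and 692.2. PACAP enhances glucose-stimulated insulin release, as background. Tesc, a calcium-binding protein, read 88.7 and 1057 (9.76-fold), below all others in 5-3.14, since the other 3 arrays read 726.1 to 2253. Plcxd3 read 431.6 and 4137 (9.17-fold), Hspa12a, a distant member of the Hsp70 family, 182.2 and 2205, and Faim2, an inhibitor of Fas-mediated cell death, 158.2 and 2818. Ptgs1, the cyclooxygenase COX-1, read 121.8 and 1118, above the 597.5 of the parental line. For Gpr6 and Adcyap1r1 the parental array read 1027 and 691.3, at the level of 5-3.19. Clones 1-1.2 and 1-1.16 read lower, with 334.1 and 486.8 for Gpr6 and 147.4 and 270.4 for Adcyap1r1.

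Txnip, the thioredoxin-interacting protein whose gene is strongly induced by glucose in beta cells, read 1988 in 5-3.14 and 15373 in 5-3.19 (7.66-fold). The parental line read 13153, clone 1-1.16 read 10608 and clone 1-1.2 read 2942, so the 5 arrays fell into a low and a high level. Pklr, pyruvate kinase of liver and beta cell type and likewise a gene induced by glucose, read 2078 and 5616 (2.69-fold), and its other probe set differed by 1.47 on the log2 scale. Slc2a2, the glucose transporter GLUT2, read 4153 and 10531 (2.53-fold), with 8926 in the parental line. Clones 1-1.2 and 1-1.16 read 5337.5 and 6485.3 for it, nearer to 5-3.14.

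Few genes set 5-3.19 apart from all 4 other arrays, and Aldh1a1 had the largest gap of those named. This enzyme, which makes retinoic acid from retinal, read 5664 in 5-3.19 and 664.3 in 5-3.14 (8.29-fold), with 407.5 to 829.6 on the other 3 arrays. Epas1, the hypoxia-inducible factor HIF-2 alpha, read 735.2 and 3104 (4.13-fold), with 845.1 to 1208 elsewhere, and its second probe set differed by 2.03 on the log2 scale. Fars2, a mitochondrial phenylalanyl-tRNA synthetase, read 743.3 and 4380.4, with 426.3 to 1775 elsewhere. Coagulation factor V (F5) read 326.7 and 908, Pygl, liver glycogen phosphorylase, 750.4 and 1920.3, and Ms4a8 1882 and 5192.

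**Figure D2:**
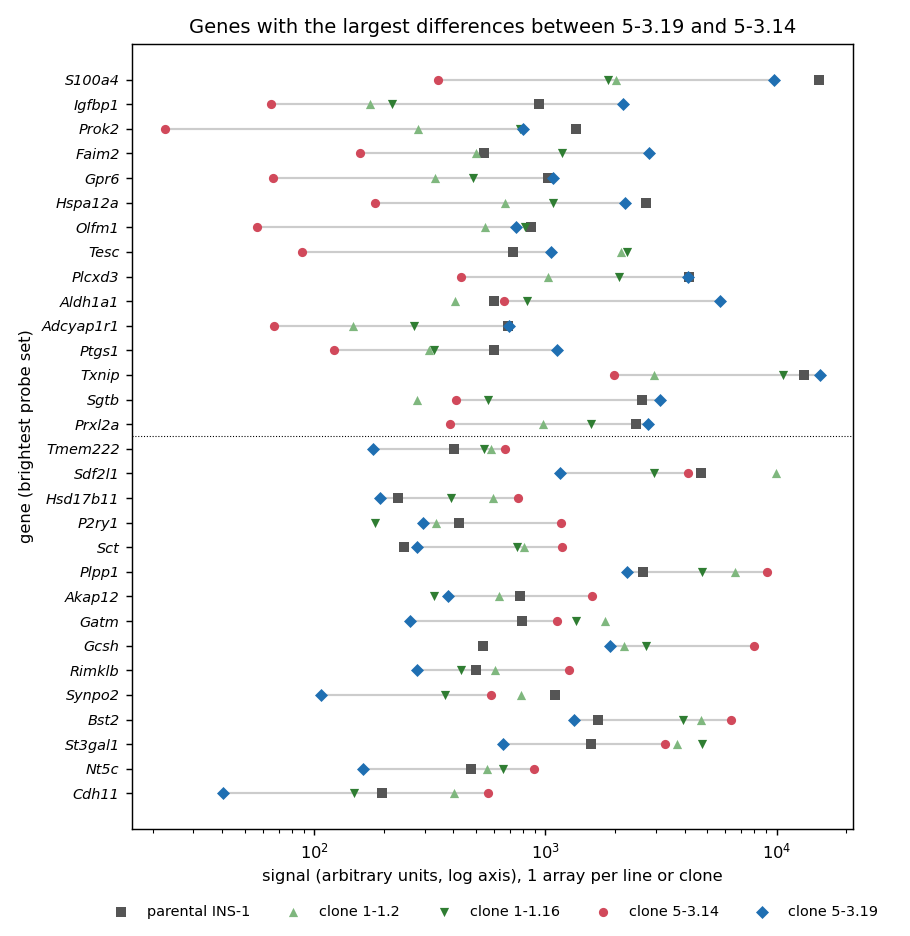
Signal on each of the 5 arrays (arbitrary units, log axis) for the 15 genes with the largest higher values (above the dotted line) and the 15 with the largest lower values in 5-3.19, with a grey line joining the sister clones. In the upper group clone 5-3.14 (red circles) is the lowest of the 5 except for Aldh1a1, where 5-3.19 (blue diamonds) stands alone at 5664, and Sgtb, where clone 1-1.2 is lower.

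The genes lower in 5-3.19 had smaller differences. Cdh11, a cadherin of mesenchymal and neural cells, read 566.8 in 5-3.14 and 40.4 in 5-3.19 (9.46-fold), with 148.5 to 403.9 on the other arrays, and was the single probe set past 8-fold in this direction. The 7 fibroblast markers summed to 2605 in 5-3.14 and 1623 in 5-3.19, most of it Thy1 (2053 and 1108). The other markers were dim and went both ways. Pdgfra (73.4 and 137.6), Col1a2 (76.7 and 105.9) and Lum (7.9 and 10.1) were higher in 5-3.19. Col1a1, Col3a1 and Dcn were lower. The part of these markers in the Cdh11 difference was not tested. Bst2, or tetherin, an antiviral membrane protein induced by interferon, read 6367 and 1325 (4.74-fold), with 1692 in the parental line and 3938 and 4722.5 in the 1-1 clones. St3gal1, a sialyltransferase of the Golgi, read 3279.5 and 653.8, and Nt5c, a nucleotidase, 890.1 and 162.8; in both, 5-3.19 was below all 4 others. Gcsh, the H protein of the glycine cleavage system, read 7963.5 in 5-3.14 and 1898 in 5-3.19 (4.16-fold), with 538.4, 2192 and 2713 in the parental line, 1-1.2 and 1-1.16. Clone 5-3.14 was the highest of the 5 for this gene, and 5-3.19 lay near the 1-1 clones. Secretin (Sct), a gut hormone, read 1176 and 278.5. The parental line, at 243.8, was close to 5-3.19, while clones 1-1.2 and 1-1.16, at 807.2 and 752.6, were nearer to 5-3.14. Sdf2l1, a chaperone partner of the endoplasmic reticulum, read 4155 and 1157, below all 4 other arrays.

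Genes were then grouped by lists, for which the background over all 6944 genes is a median difference of -0.04, with 321 higher and 124 lower past 2-fold. Counted by direction alone, 3231 of the 6944 (46.5%) were higher in 5-3.19 and 3712 lower, and the counts below stand beside that share. Genes of lipid synthesis were mostly lower in 5-3.19. In cholesterol synthesis and uptake 16 of 20 genes were lower in 5-3.19, with a median of -0.42, and 0 of 20 were past 2-fold. Insig1, which restrains the sterol-sensing machinery, read 6173 and 3803, Cyp51, lanosterol demethylase, 8444 and 5466, and Fdps, farnesyl diphosphate synthase, 15819 and 10367. The differences were thus small and mostly in 1 direction, and Nsdhl (288.3 and 415.2) and Insig2 (745 and 1016) went the other way. Of 15 genes of fatty acid synthesis and desaturation, 4 were past 2-fold lower and 1 higher, with a median of -0.32, or -0.53 when the probe sets of each gene were averaged. Scd2, a stearoyl-CoA desaturase, read 14012 and 4616 (3.03-fold), and its other probe sets differed by -2.13 and -1.13. Srebf1, the transcription factor that drives fatty acid synthesis genes, read 1734 and 618.4, and the desaturases Fads1 and Fads2 read 5218 and 2046, and 1440.2 and 545.5. The parental line read 16642 for Scd2 and 6326 for Fads1, on the side of 5-3.14, whereas clone 1-1.16 read 3083 and 765.2, below 5-3.19. Acaca, acetyl-CoA carboxylase, ran against the group at 2520.2 and 5602.

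Genes of fatty acid breakdown were on the other side. In peroxisomal and mitochondrial oxidation 17 of 22 genes were higher in 5-3.19, with a median of 0.27, and 1 was past 2-fold. This was Eci2, an enoyl-CoA isomerase, at 295.9 and 640.7, and it fell under 2-fold after quantile normalization (0.99 on the log2 scale) and with the raised offset (0.93). Cpt1a, which gates entry of fatty acids into mitochondria, read 615.7 and 1074.5, and Hadhb, a subunit of the trifunctional protein, 3622 and 6039. Acadm and Etfb were lower, at 1071 and 823.6, and 2052 and 1569.

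One-carbon metabolism, which moves single carbons from serine and glycine into nucleotides, had the lowest median of the lists with at least 8 compared genes, -0.47. In this list of 15 genes 4 were past 2-fold lower and 0 higher: Gcsh, the folate carrier Slc19a1 (1013 and 477.7), and the mitochondrial enzymes Shmt2 (1452 and 703.6) and Mthfd2 (1599 and 783.1). All 4 had the parental array nearer to 5-3.19. Slc19a1, Shmt2 and Mthfd2 lay at the limit, and with the raised offset they differed by -0.96, -0.96 and -0.95, under 2-fold. Mat1a (350.7 and 630.1) and Dld (817.5 and 1187) were on the higher side. Shmt2 and Mthfd2 are also in the list of ATF4 targets, the genes switched on by amino acid shortage; that list as a whole had a median of 0.02 over 26 genes, with 3 lower past 2-fold, the last being Trib3 (344.5 and 142.2; -0.91 with the raised offset).

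Interferon and antigen presentation genes were lower in 15 of 21 cases, with a median of -0.33 and 3 past 2-fold lower: Bst2, the DNA-sensing adaptor Sting1 (209.5 and 37.4) and the antiviral enzyme Oas1a (444.1 and 203.6; -0.87 with the raised offset). The immunoproteasome subunit Psmb9 read 1266 and 636.2 and the peptide transporter Tap1 338.5 and 177. B2m, the light chain of MHC class I, read 17362 and 17139, so the lower signal was not shared by all members. Leukocyte markers summed to 590.9 in 5-3.14 and 498.7 in 5-3.19 with no single marker above 146.4 in either clone.

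The list of complement, coagulation and liver-secreted proteins had the highest median, 0.74, though 8 of its 34 genes on the array were bright enough to compare. Serpina1, the protease inhibitor alpha-1 antitrypsin, read 214.2 and 576, Serpine2 read 1574.6 and 3676.5, and F5 is given above; these 3 were past 2-fold higher. Fetub, fetuin-B, was bright in both sister clones at 3139 and 2556, with 30.3 to 191.9 on the other 3 arrays. It is a difference that the sister clones shared.

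The list of retinoid and aldehyde metabolism had 4 of 15 genes past 2-fold higher and 0 lower. Its median was -0.17, so the higher genes were a subset. Beside Aldh1a1 these were Crabp1, a retinoic acid binding protein (96.2 and 533.4), Dhrs3, which reduces retinal (98.8 and 337.2), and Adh5 (814.2 and 1922). The receptor genes Rara and Rxra read 229.8 and 359.2, and 306.7 and 258.1. The list of glutathione and oxidative stress had 5 of 22 higher and 0 lower past 2-fold: Txnip, the metallothionein Mt3 (478.5 and 1408), heme oxygenase Hmox1 (161.7 and 424.3), sulfiredoxin Srxn1 (821.9 and 1943) and Gsta4 (1000.1 and 2209.6). Of other genes induced by oxidative stress, Nqo1 read 1017 and 713.4, Gclm 1329.8 and 1320.3 and Gclc 605.8 and 841.8, so the direction was not common to all.

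The beta cell programme itself was close between the clones. Over 21 identity genes the median was -0.03, with 2 past 2-fold higher, Slc2a2 and the transcription factor Nkx6-1 (1031 and 2158; 0.97 after quantile normalization), and 0 lower. Ins2, the other rat insulin gene, read 3953 and 4303, both far below the 28816 of the parental line and near the 5381 of clone 1-1.16. Iapp, the amyloid peptide released with insulin, read 28102 and 19159.8, Pdx1 2845 and 2185, Hnf4a 404.4 and 362, Pcsk2 7512 and 8705, and Chga 21575 and 24607. The potassium channel subunits Kcnj11 and Abcc8 read 4442 and 4118, and 2355 and 2474. Glucagon (Gcg) was bright in both, at 20549.5 and 24434. It read 6874.5 in the parental line, 2063.6 in clone 1-1.2 and 17772.1 in clone 1-1.16. Among granule proteins Sytl4, granuphilin, which docks insulin granules, stood out at 116.5 in 5-3.14 and 748.3 in 5-3.19 (5.57-fold), both below the 978.3 to 3234 of the other arrays, and Vgf was lower at 7805 and 3735.

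Of 25 ion channels and pumps 15 were higher and 10 lower in 5-3.19, and 2 were past 2-fold higher, the calcium release channel Itpr1 (1064 and 2699.6) and the calcium channel subunit Cacna2d1 (630.4 and 1593). The median was 0.19, and 0.12 after quantile normalization. Of 26 neuronal genes 17 were higher and 9 lower, with a median of 0.22, and 3 were past 2-fold higher and 1 lower. Olfm1, a secreted neuronal glycoprotein, read 56.7 and 745.7, Nell2 16.3 and 290.1, and the adhesion molecule Cntn1 125.3 and 540.2. All 3 read 297.1 or more on each of the other arrays, so 5-3.14 was the lowest of the 5. The G protein subunit Gng3 was low in both, at 129.4 and 38.5, against 2453 to 5095 elsewhere, and with the raised offset it differed by -0.79, under 2-fold.

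**Figure D3:**
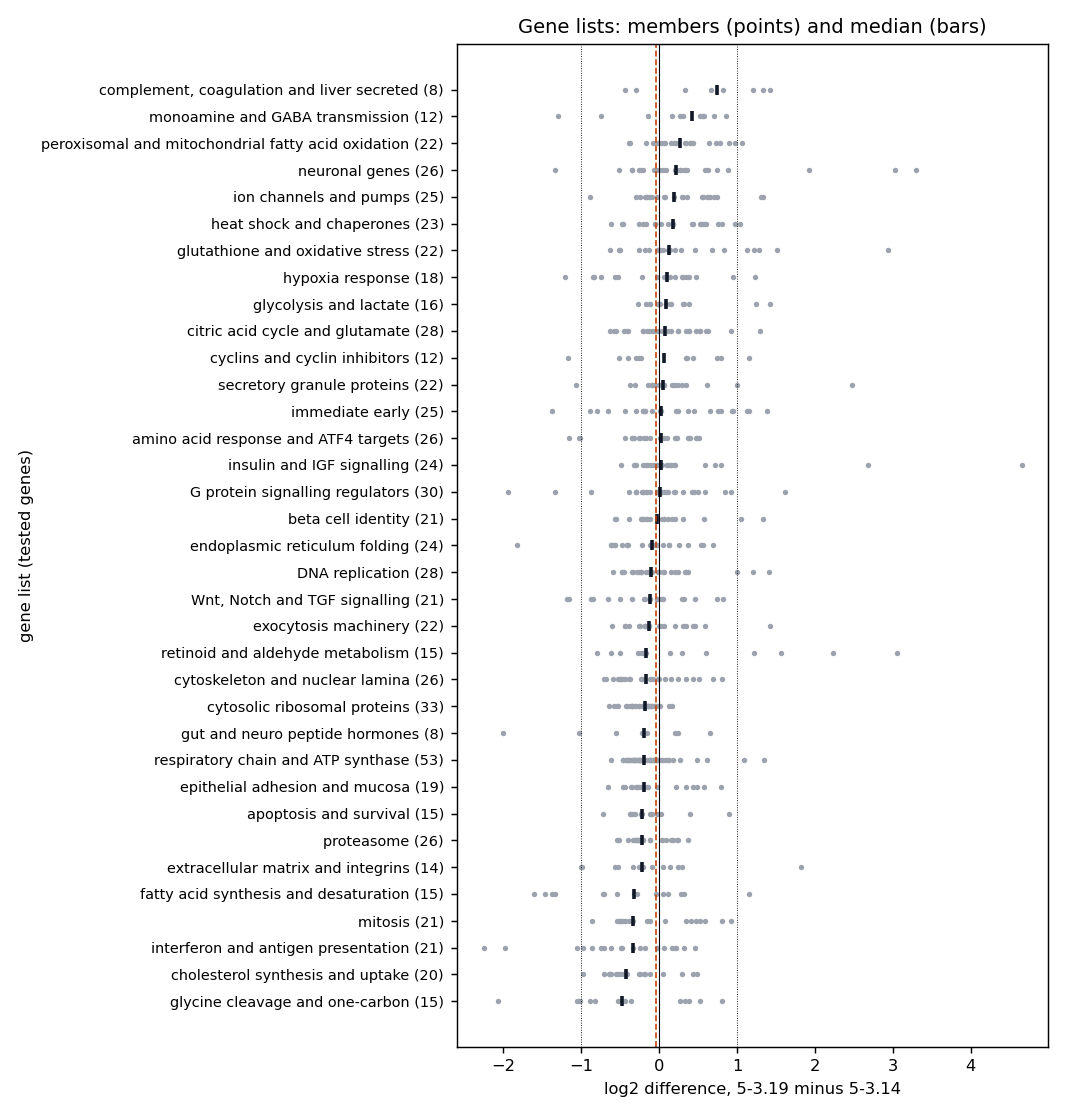
Difference on the log2 scale, 5-3.19 minus 5-3.14, for each compared gene (grey points) of lists with at least 8 compared genes (number in brackets), with the list's median as a black bar. The dashed line is the median of all 6944 genes, -0.04, and dotted lines mark 2-fold. Medians run from -0.47 for one-carbon metabolism to 0.74 for complement, coagulation and liver-secreted proteins.

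Part of the uneven count lay in 2 stretches of chromosome. When compared genes were taken in blocks of 20 neighbours along GRCr8, 10 of 348 blocks had a median difference of at least 0.5 on the log2 scale, and these 10 made up 2 runs. The first, at the start of chromosome 1 from Lrp11 to Rmnd1, held 60 genes, of which 53 were higher in 5-3.19, with a median of 0.81 (1.76-fold). The second, on chromosome 14 from Ube2k to Chac2, held 139 genes, of which 124 were higher, with a median of 0.66 (1.58-fold). Block medians elsewhere ran from -0.39 to 0.43. The runs were picked from these same values, so their counts are a description.

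Of the sister clones, 5-3.14 was the one apart from the parental line in both runs. On chromosome 1 the median difference from the parental array was -0.90 for 5-3.14 and 0.03 for 5-3.19, and 5-3.14 was the lowest of the 5 arrays for 47 of 60 genes. On chromosome 14 the medians were -0.65 for 5-3.14 and 0.02 for 5-3.19, and 5-3.14 was lowest for 89 of 139. Over all genes compared, 5-3.14 was the lowest for 1609 of 6944. The runs were picked by the difference between the sister clones, which by itself favours a low 5-3.14. Clone 1-1.16 was also below the parental line in part of the second run. Its block medians were -0.87 from Tapt1 to Grpel1 and -0.75 from Sorcs2 to Ywhah, against -0.73 and -0.69 for 5-3.14. From Ascc2 to Zmiz2 clone 1-1.16 was above the parental line, at 0.43, where 5-3.14 stood at -0.68. The remaining genes of chromosome 1 had a median of -0.11 between the sister clones and those of chromosome 14 a median of 0.13.

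The runs held genes of varied function, and those named here were chosen after their values were seen. On chromosome 1, Fuca2, a fucosidase, read 1401 in 5-3.14 and 6613 in 5-3.19, Bclaf1 698.7 and 2627, the exocyst subunit Exoc3 1359 and 4364, and Sdha, a subunit of respiratory complex II, 1166 and 3013. For Sdha the other 3 arrays read 2938 to 3499, a narrow range above 5-3.14. On chromosome 14, Sepsecs, an enzyme of selenocysteine synthesis, read 380.1 and 1543, Anapc4 664.8 and 2119, Psme4 1234 and 3459, and the Notch pathway factor Rbpj 531.9 and 1161. Igfbp1 also lies in this run, with a difference far above its median. Akap12, a scaffold of protein kinase A, ran against its run on chromosome 1, at 1592 and 379.4.

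Together the runs held 199 genes, 2.87% of those compared, and 54 of the 321 genes past 2-fold higher (16.8%). Without them 267 genes (3.96%) were higher and 121 (1.79%) lower past 2-fold, and 68.8% of these were higher, against 72.1% with them. Chromosomes 19 and 20 showed a pattern the sister clones shared: on chromosome 19 the median difference from the parental array was 0.80 in 5-3.14 and 0.71 in 5-3.19, against 0.02 in clone 1-1.2 and 0.05 in 1-1.16, and on chromosome 20 it was 0.35 and 0.27, against -0.06 in both 1-1 clones. Chromosome 20 was uneven along its length. In 5-3.14 and 5-3.19 the block medians against the parental array were 0.62 and 0.45 from Ier3 to Neu1, but -0.19 and -0.16 from Dnajc12 to Fam241b. What sets these stretches apart was not tested.

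**Figure D4:**
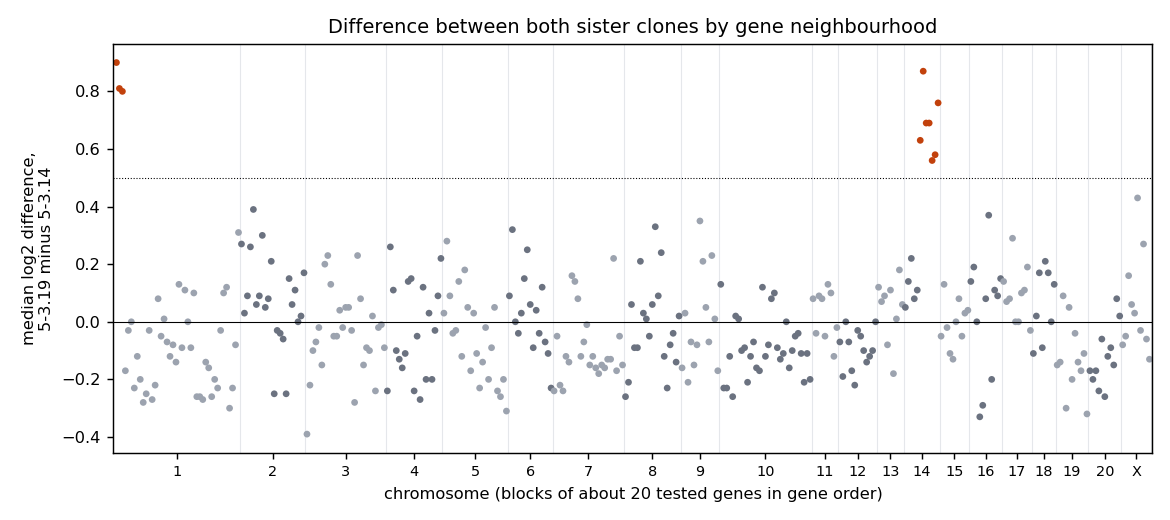
Median log2 difference, 5-3.19 minus 5-3.14, in each of 348 blocks of about 20 neighbouring compared genes, in chromosome order; the dotted line is at 0.5. The 10 blocks at or above it (orange) lie at the start of chromosome 1 and on chromosome 14, and no other block passes 0.43.

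The difference also varied with the length of the gene in the genome. With 6924 genes put into 5 classes of equal size by genomic span, the median was -0.20 in the shortest class (up to 7.94 kb), -0.10, -0.03 and 0.08 in the middle 3 and 0.15 in the longest (from 67.5 kb). Across these genes, which are not independent replicates, Spearman's rho of span and difference was 0.29. Leaving out the runs on chromosomes 1 and 14 gave -0.21 and 0.14 at the ends. Other pairs of arrays had slopes of their own, from 0.17 to -0.18 for clone 1-1.2 minus the parental line and from -0.08 to 0.14 for 1-1.16 minus 1-1.2. For 5-3.19 minus 1-1.2 the medians ran from -0.22 to 0.22, a steeper gradient than between the sister clones.

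Some lists with many short genes had medians that followed this gradient. Cytosolic ribosomal proteins were lower in 30 of 33 genes with a median of -0.18, 31 of 32 with a known span being in the shortest class, and the median was 0.02 after the median of each gene's span class was subtracted. For the respiratory chain, lower in 42 of 53 genes, the median went from -0.19 to -0.03, for the proteasome from -0.22 to -0.10, and for interferon genes from -0.33 to -0.14. Of the 3 other scalings, 2 also brought the first 3 of these medians nearer to 0: after quantile normalization and cyclic loess they were -0.09 and -0.02 for ribosomal proteins, -0.08 and -0.08 for the respiratory chain, and -0.14 and -0.13 for the proteasome. Median centring moved them to -0.24, -0.24 and -0.28. The proteasome list had 9 of 26 genes in the shortest class. Not every list rich in short genes had a lower median: immediate early genes had 18 of 25 in that class and a median of 0.03. After the span class medians were subtracted, cholesterol synthesis kept -0.36, fatty acid synthesis -0.40 and one-carbon metabolism -0.41. Fatty acid oxidation then stood at 0.34, and complement, coagulation and liver-secreted proteins at 0.80. What the gradient stems from was not tested.

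**Figure D5:**
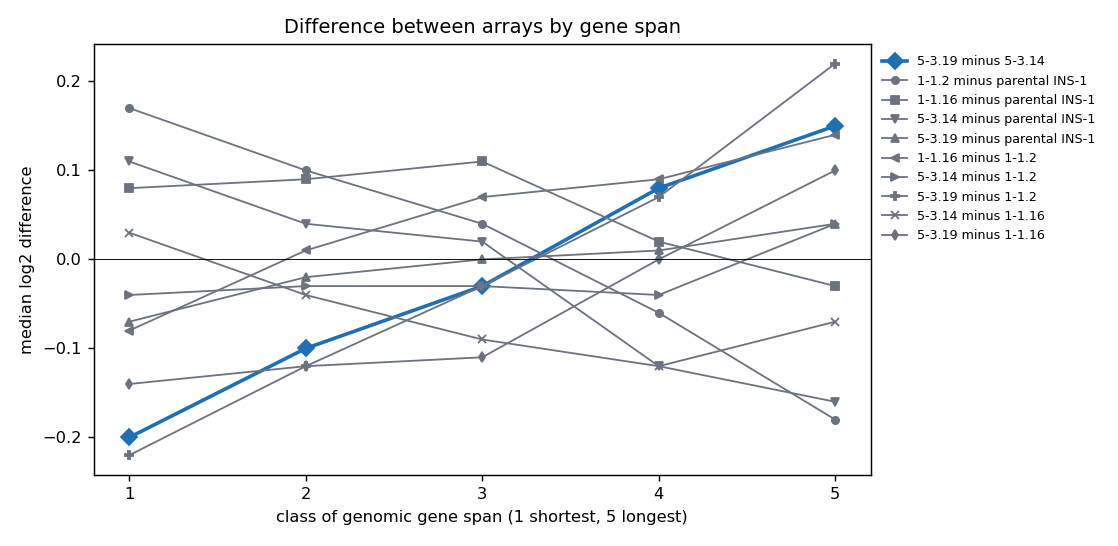
Median log2 difference (vertical) in 5 classes of genes by genomic span, from the shortest (1) to the longest (5), for 5-3.19 minus 5-3.14 (blue) and the 9 other pairs of arrays (grey). The blue line climbs from -0.20 to 0.15, and the grey lines slope both ways, the steepest being 5-3.19 minus 1-1.2, from -0.22 to 0.22.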

How the data were processed

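Total RNA of clones 5-3.19 and 5-3.14, parental INS-1 and clones 1-1.2 and 1-1.16 was read on 1 single-colour rat array each. The values the authors deposited are intensities on a linear scale, judging by the values themselves. Which software made them is not given in the sources used here, nor is a background correction. Leaving out 2% of signals at each end, the mean ran from 1000.24 to 1000.28, from which an earlier scaling is inferred, and nothing was rescaled. A single array per clone limits the precision of every value. Without detection calls, dim probe sets have no measured floor.

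Of 15923 probe sets, 57 controls were left out. A platform table gave 12783 probe sets 1 gene symbol, 312 several and 2771 none. By gene number 12748 of these were found in the GRCr8 table, and 35 kept the platform's symbol. Differences were taken on log2(signal + 21.8), the offset being the 10th percentile of positive signals. Probe sets entered at or above the 40th percentile of mean level, about a signal of 194.0. A difference was counted from 2-fold, with no test. Gene counts and lists use the brightest probe set.

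Genes were named by a rule: 15 each way with the largest difference where the brighter clone reached 500, up to 6 each way per clone farthest from the other 4 arrays, up to 4 members of each list with the largest difference, and beta cell genes fixed by name. Other list members and the genes of the chromosome runs are named as examples seen in the values. The members and lists were chosen with earlier results of these data known, and the chromosome runs and the span gradient were found in these values. Alternatives covered scaling, offset, filter, fold limit and probe set. The counting and the search for runs were tested on simulated data. The simulated noise was smaller than the spread of 0.424 on the log2 scale between the sister clones, and it had no gradient by gene span. The simulation therefore cannot tell how well the search works on these arrays. Tools were Python 3.11.15, pandas 2.3.3, scipy 1.17.1, R 4.3.3 and limma 3.58.1 (for the other scalings).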

Additional observations from a re-analysis of the deposited data

How the results depend on the processing

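With 1 array per clone, no array could be left out and no test run; no paired analysis was possible because no clone has a second array. The counts of higher and lower probe sets depended on the filter and the fold limit: 1065 and 585 without a filter, 271 and 84 with the filter at the 60th percentile, 203 and 71 where both arrays read at least 500, and 1286 and 716, 111 and 30, and 49 and 13 at 1.5-, 3- and 4-fold. Higher outnumbered lower in every one of these. Under the 3 other scalings the counts were 374 to 417 higher and 195 to 199 lower, and the share higher was 65.7 to 68%. A larger offset gave 351 and 122 and a smaller one 500 and 191. Genes outside both chromosome runs, counted after the data were seen, numbered 267 higher. The share of higher probe sets with the parental array nearer to 5-3.19 was 71.1% with median centring and 87.8% at 4-fold. The run medians were 0.75 to 0.84 on chromosome 1 and 0.61 to 0.69 on chromosome 14. The median of each gene's span class was also subtracted, an alternative chosen after seeing the data. Of the list medians larger in size than the -0.10 of DNA replication, 3 then changed sign: ribosomal proteins to 0.02, Wnt, Notch and TGF signalling to 0.01 and gut and neuro peptide hormones to 0.02. Smaller medians changed sign too, among them DNA replication to 0.05, beta cell identity from -0.03 to 0.01 and insulin and IGF signalling from 0.02 to -0.02. Of 176 named genes, 96 were past 2-fold, and none of these 96 changed direction under the scalings and offsets. Changes of direction were not counted for the named genes under 2-fold. Of the 176, 18 had a value that moved by more than 0.42 on the log2 scale, all with the offset. Of the 96, 17 fell below 2-fold in at least 1 setting. With an offset 4 times larger, Prok2 gave 3.01 and Igfbp1 3.89 on the log2 scale.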

Other observations

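Among 25 immediate early genes, which respond within minutes to stimulation, the sister clones differed in both directions. Nr4a1 read 244.7 in 5-3.14 and 673 in 5-3.19, Egr1 956.2 and 2145 and Junb 223.1 and 514.9 (0.96 on the log2 scale with the raised offset, under 2-fold), while Dusp5, a phosphatase of the same early response, read 1475 and 556. The list's median was 0.03, and 18 of its genes lie in the shortest of 5 classes by genomic span. After the median of each gene's class was subtracted it was 0.23.

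Genes of cell division also went both ways. In the mitosis list 13 of 21 genes were lower in 5-3.19, with a median of -0.33 and 0 past 2-fold. That median was -0.15 when the probe sets of each gene were averaged and -0.18 after the span class medians were subtracted. Mad2l1, a spindle checkpoint protein, read 3242 and 1779, whereas Top2a, a topoisomerase, read 2096 and 3993. Among cyclins and their inhibitors, Ccnd1, cyclin D1, read 126.3 and 308.3 (0.89 with the raised offset), and Cdkn1b, the inhibitor p27, 3811 and 1677.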
